A study of Mus musculus with 12 samples.

Results

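The BCL2 family and the ER stress death genes were examined in hypertrophic zones of growth plate cartilage, as 10 genes (Bcl2, Bcl2l1, Mcl1, Bax, Bak1, Bcl2l11, Bid, Bbc3, Casp12 and Tnfrsf10b). They were found by their symbol in the annotation of the array. All 10 were present, among 27962 gene names, with 20 of the 41174 probes that are not controls. Bcl2, Bcl2l1, Bcl2l11 and Tnfrsf10b had 3 probes each, Mcl1 and Bak1 had 2, and the other genes had 1. Probes of a gene are numbered by brightness, so that probe 1 has the highest mean signal over the 12 arrays. Of the 20 probes, 10 were well above background on all 12 arrays, 1 on none, and no spot of any of them was saturated.

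Hypertrophic zones were cut by hand from a tibia of each mouse at an age of 14 days, in 4 groups of 3 mice, with 1 array per mouse. Schmid mice were homozygous for Col10a1 p.Asn617Lys, a knocked-in change in endogenous collagen X that makes it misfold. Cog mice (ColXTgcog) carried a transgene for the misfolding Tgcog form of thyroglobulin under the Col10a1 promoter, so the stress protein is made where that promoter is active. The paper reports that hemizygous and homozygous Cog mice were not told apart, so this group most likely holds both. It proposes that noise from this could explain the smaller number of changes in Cog, which was not tested here. Each mutant was compared with its own wildtype (Wt) group, from the Schmid or the Cog background, which the labels describe as littermates. RNA went through 2 rounds of linear amplification before labelling with Cy3, and a microdissected zone can hold cells other than chondrocytes. Values are log2 signals after background correction and quantile normalization. A probe was called changed at a Benjamini-Hochberg adjusted p of 0.05 or less over all probes (limma) together with a fold change of at least 2. A fold change below wildtype carries a minus sign. A difference between the mutants means the Schmid effect minus the Cog effect, each taken against its own wildtype.

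Proteins of the BCL2 family decide whether the outer membrane of mitochondria stays intact. BCL2, BCL-XL (from Bcl2l1) and MCL1 preserve it, BAX and BAK (from Bak1) form pores in it, and the BH3-only proteins BIM (from Bcl2l11), BID and PUMA (from Bbc3) bind the former or activate the latter. Under prolonged ER stress, CHOP (encoded by Ddit3) is known to raise death genes, among them the death receptor DR5 (Tnfrsf10b) and BIM, and to lower BCL2. Caspase 12 is a rodent protease associated with the ER membrane. In the growth plate, the last hypertrophic chondrocytes are replaced by bone at the front of invading vessels.

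Few of these probes changed. In Schmid, 2 of the 20 probes were called, both lower than wildtype, one of Bak1 and one of Bcl2l11. This share stood beside 10.5% of all 41174 probes called in Schmid in either direction, 5.78% higher and 4.69% lower, and was thus near the background. In Cog, 0 of 20 were called by limma, beside 2.31% of all probes. An unadjusted limma p of 0.05 or less was seen for 7 of the 20 in Schmid and 6 in Cog. The share of all probes at that level was not counted, so such counts, here and below, have no baseline. At the adjusted p of 0.05 with no limit on the fold change, 1 probe was higher and 3 were lower in Schmid (10.6% and 13.3% of all probes), and 1 was lower in Cog (1.86%). The median log2 fold change over the 20 probes was -0.31 in Schmid and -0.09 in Cog, against -0.06 and 0.00 over all probes. All 3 mutant arrays lay above all 3 wildtype arrays for 2 probes and below for 7 in Schmid, as did 19.3% and 26.0% of all probes. In Cog these numbers were 2 and 3, against 16.4% and 13.0% of all probes. The plots of signal by array and of change by probe show all 20.

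**Figure D1:**
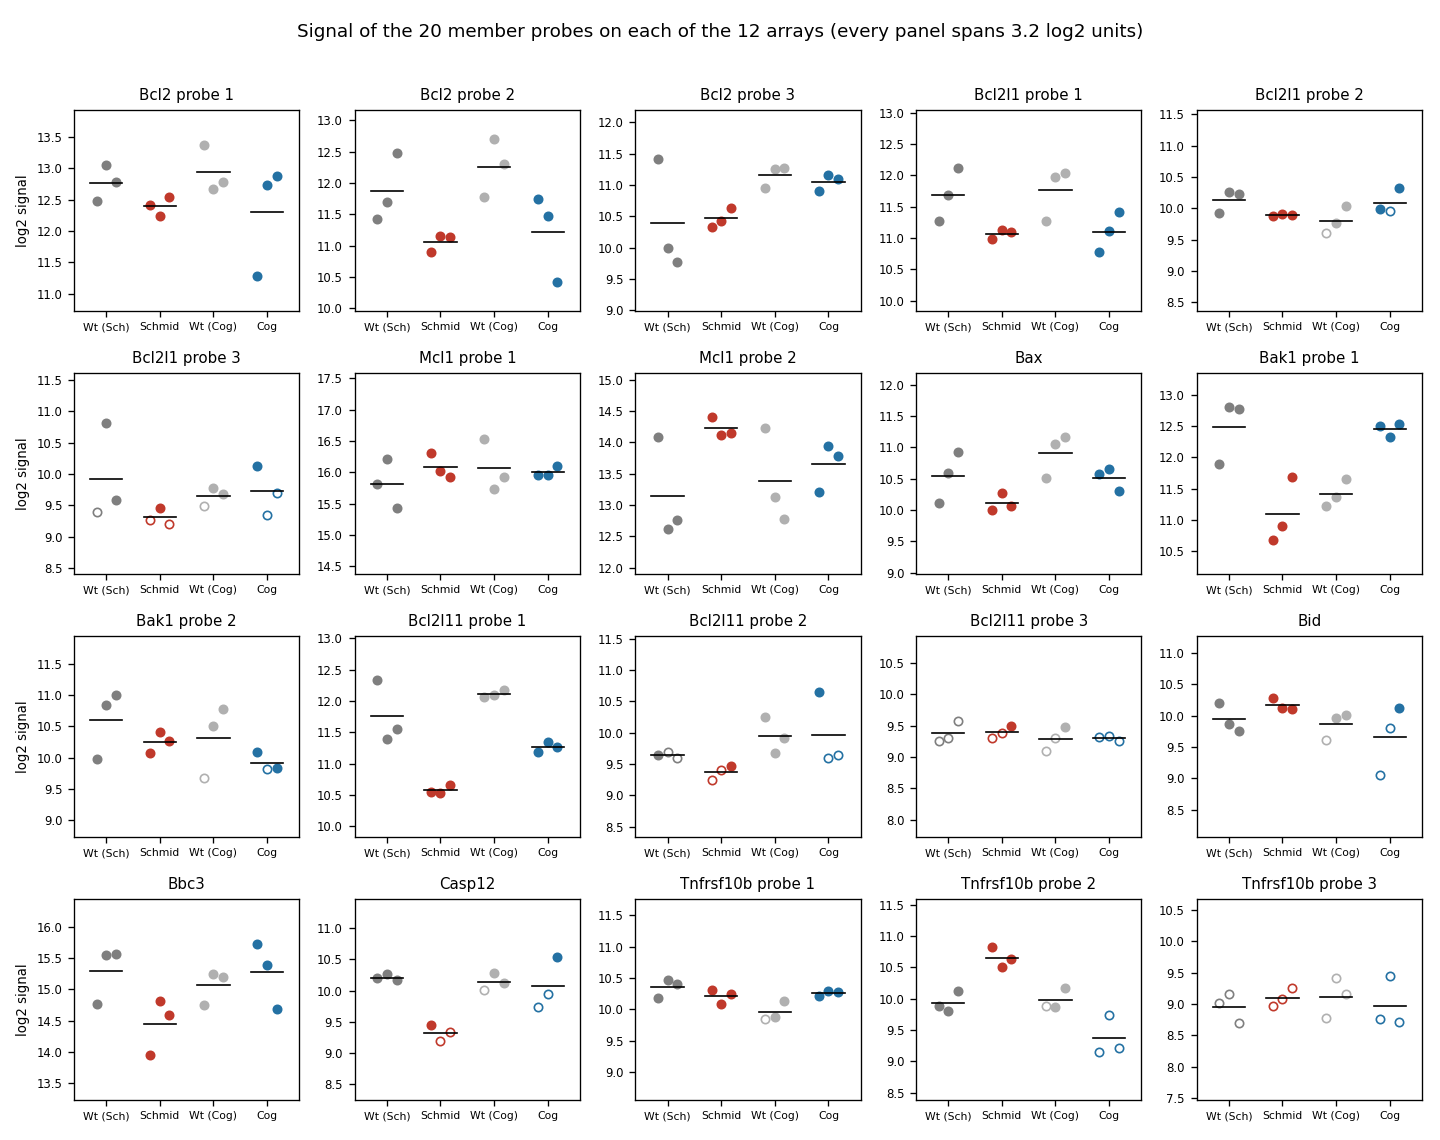
Log2 signal of each member probe (vertical axis, every panel spanning the same number of log2 units) on the 3 arrays of each of the 4 groups (horizontal axis). Filled points were well above background, open points were not, and lines are group means. Bak1 probe 1 is low on the Schmid arrays and high on the Cog arrays, Bcl2l11 probe 1 is lower in both mutants than in their wildtypes, and most other panels overlap.

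**Figure D2:**
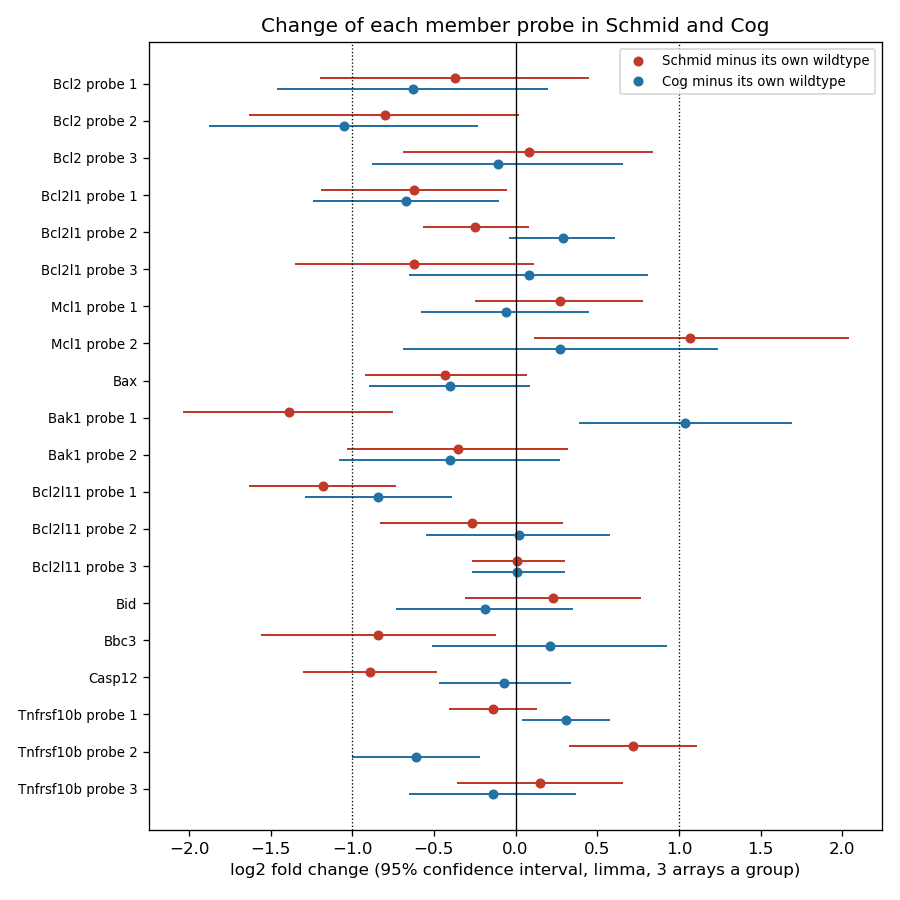
Log2 fold change of each member probe against its own wildtype in Schmid (red) and Cog (blue), with 95% confidence intervals from limma that are not adjusted for the number of probes. Dotted lines mark 2-fold either way. Bak1 probe 1 lies at -1.39 in Schmid and 1.04 in Cog, and Bcl2l11 probe 1 at -1.18 and -0.84.

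The arrays differed in ways that touch these values. The share of spots well above background was 58.92 to 61.79% on Schmid arrays and 39.57 to 59.43% on the others. Mutant arrays and those of their own wildtype were on different slides, and slide and genotype cannot be told apart. In Schmid, 10.4% of the probes in the first 30% of rows (1 to 159 of 532) were called lower, against 2.3% in the other rows, and 9 of the 20 member probes lie in these first rows. Of these 9, 7 were below wildtype in Schmid (median log2 fold change -0.43), against 6 of the other 11 (median -0.14). With the trends over rows and probe GC content removed, these medians were -0.48 and 0.01. The share of all probes below wildtype in these rows was not counted. Scaling to a common 75th percentile moved the median over all probes to -0.35 in Schmid (normexp values) or to -0.40 in Schmid and 0.43 in Cog (processed signal). Of all calls in Schmid, 55.2% were higher than wildtype, against 42.0 to 42.6% with these scalings or with the processed signal after quantile normalization.

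The tissue was checked against its markers. Col10a1, which marks hypertrophic chondrocytes, was well above background on all 12 arrays, with a mean log2 signal of 14.21 in Schmid, 14.23 in its wildtype, 15.06 in Cog and 14.06 in its wildtype. Of the 7 hypertrophic markers, 6 were below wildtype in Schmid (median log2 fold change -1.11), and 2 were called lower, Ihh (-3.55) and Alpl (-1.11). In Cog 5 of the 7 were below wildtype and Ihh was called lower (-1.37). Of 6 general chondrocyte markers 0 were called in either mutant by limma, while 4 in Schmid and 0 in Cog had an unadjusted p of 0.05 or less. Markers of other cells were also present, and some were called between genotypes. Of 5 endothelial markers, 3 were called lower in Schmid and 0 in Cog, and their mean log2 signal was 9.73 to 10.19 on Schmid arrays against 11.10 to 11.55 on wildtype arrays, and 10.52 to 11.08 on Cog arrays against 11.43 to 11.54. Of 5 erythroid markers, 3 were called lower in Schmid, with a mean of 11.31 to 12.29 against 13.57 to 15.23, and 0 in Cog, where the means overlapped. Of 5 osteoblast markers, 2 were called lower in Schmid (Col1a1 and Ifitm5) and 1 in Cog (Dmp1, -1.90), and all 5 were below zero in both mutants (medians -1.23 and -0.43). Their mean log2 signal was 13.22 to 13.71 in Schmid against 14.17 to 15.40, and 13.92 to 14.32 in Cog against 14.53 to 15.14. Of 5 proliferation markers 2, and of 4 macrophage markers 1, were called lower in Schmid and 0 in Cog, and of 7 neutrophil and 5 osteoclast markers 0 were called in either mutant. The neutrophil markers varied widely between arrays. All 7 were below zero in Schmid (median log2 fold change -2.01), and 6 were above zero in Cog (median 1.33). All 7 were higher in wildtype of the Schmid background than of the Cog background (median 1.74). Their part in the member values was not tested. In such bulk tissue, fewer cells of a type and less RNA per cell cannot be told apart.

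Among the pore-forming effectors, Bak1 changed at 1 of its 2 probes. Probe 1 (NM_007523) had log2 signals of 10.68, 10.91 and 11.69 in Schmid and 11.89, 12.81 and 12.78 in its wildtype. In Cog they were 12.50, 12.33 and 12.53, and 11.23, 11.37 and 11.65 in its wildtype. All Schmid arrays thus lay below their wildtype and all Cog arrays above theirs. Schmid differed from wildtype by -1.39 ± 0.29 on the log2 scale (SE, n = 3 per group), or a fold change of -2.63 (adjusted p = 0.0079 by limma). Cog differed by 1.04 ± 0.29, a fold change of 2.05 that was not called (adjusted p = 0.075). Tested directly, the effects of the mutants differed by -2.43 on the log2 scale (95% confidence interval -3.35 to -1.51, limma, adjusted p = 0.0043). For this difference 10.3% of all probes were called, 4.38% above zero and 5.88% below. Of the 20 member probes 1 was called above zero (Tnfrsf10b probe 2) and 1 below (Bak1 probe 1).

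The wildtype groups stood apart at this probe as well. Its log2 signal was higher by 1.07 in wildtype of the Schmid background than in wildtype of the Cog background (limma, adjusted p = 0.12), with no overlap of arrays. The Cog mean (12.45) and the wildtype mean of the Schmid background (12.49) were close, and the Cog arrays shared their slide with replicate 3 of that wildtype group. Of the 20 probes, 0 were called between the wildtypes, where 0.469% of all probes were, and 4 had an unadjusted limma p of 0.05 or less. The probe lies in row 139 of the array. With the trends over rows and probe GC content removed, its log2 fold change in Schmid was -0.73 (adjusted p = 0.031) and no longer 2-fold, and in Cog 0.85 (adjusted p = 0.053), while the difference between the mutants remained called (-1.58, adjusted p = 0.0095).

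Bak1 probe 2, which targets the same accession, did not follow. Its mean log2 signals were 10.25 ± 0.17 in Schmid and 10.61 ± 0.55 in wildtype (SD, n = 3), and 9.91 ± 0.15 in Cog and 10.32 ± 0.57 in wildtype. The log2 fold changes were -0.35 (limma, adjusted p = 0.42) and -0.40 (adjusted p = 0.49), with a difference between the mutants of 0.05 (95% confidence interval -0.91 to 1.01). According to the array's annotation (mouse build mm7), probe 1 lies at chr17:25205887-25205946 and probe 2 at chr17:25204734-25204793, 1093 bases further along the minus strand. Probe 2 lies in row 394 and was well above background on 10 of 12 arrays. The Bak1 change therefore rests on probe 1 alone, which targets the BH1 region, a part of the groove that BCL2 proteins share. Its 60 bases are shown with those of Bcl2 probe 2 (chr1:106612249-106612308, minus strand), which targets the same region of the survival protein. Capitals mark the codons around the conserved glycine at the core of BH1 in Bak1, and the codons at the far end of BH1 in Bcl2.
Bak1 probe 1: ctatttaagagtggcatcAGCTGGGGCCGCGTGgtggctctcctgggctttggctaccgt
Bcl2 probe 2: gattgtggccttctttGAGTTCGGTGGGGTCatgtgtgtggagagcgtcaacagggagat

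Bax, the other effector, was not called. Its log2 signals were 10.00, 10.28 and 10.07 in Schmid and 10.12, 10.59 and 10.93 in wildtype, with a log2 fold change of -0.43 (limma, adjusted p = 0.18). Cog stood at -0.40 (adjusted p = 0.34), and the groups overlapped in both mutants. The 95% confidence interval was -0.92 to 0.07 for Schmid and -0.90 to 0.09 for Cog, so neither interval reached a 2-fold change.

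Among the BH3-only genes, Bcl2l11 was called lower in Schmid at its brightest probe and was below wildtype there in Cog, under the 2-fold limit. Probe 1 (NM_207680) had log2 signals of 10.55, 10.53 and 10.66 in Schmid and 12.34, 11.39 and 11.56 in its wildtype. In Cog they were 11.19, 11.34 and 11.26, and 12.06, 12.10 and 12.17 in its wildtype. Every mutant array lay below every array of its own wildtype, in both comparisons. In Schmid this was a log2 fold change of -1.18 ± 0.20 (SE, n = 3 per group), or -2.27-fold (adjusted p = 0.0029 by limma). Cog had -0.84 ± 0.20, or -1.79-fold (adjusted p = 0.044), which is under the 2-fold limit. The Schmid effect minus the Cog effect was -0.34 (95% confidence interval -0.98 to 0.30, limma, adjusted p = 0.44), so the effects could not be told apart.

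The size of the Bcl2l11 change in Schmid depended on a wildtype array. Without replicate 1 of that wildtype group, which was the highest, the log2 fold change was -0.90 (adjusted p = 0.00049) and under 2-fold, and over all alternatives other than limma's test against 2-fold the adjusted p ran from 0.00049 to 0.041. The Cog value was less firm. Its adjusted p was above 0.05 whenever any Cog array or any array of its wildtype was left out (0.074 to 0.13, with log2 fold changes of -0.88 to -0.81), and with either scaling to the 75th percentile (0.13 and 0.18). The probe lies in row 43, and with the trends over rows and GC content removed Schmid stood at -0.85 (adjusted p = 0.024) and Cog at -0.99 (adjusted p = 0.042). Of the endothelial and osteoblast markers given above, 5 of 5 and 5 of 5 were below zero in Schmid, and 4 of 5 and 5 of 5 in Cog, where 0 and 1 were called. Their part in the result was not tested.

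The other Bcl2l11 probes were dim. Probe 2 was well above background on 6 of 12 arrays and had a Schmid log2 fold change of -0.27 (adjusted p = 0.46 by limma) and a Cog one of 0.02 (adjusted p = 0.98). Probe 3 was well above background on 2 of 12 arrays and on none of Cog or of the wildtype of the Schmid background, so it gives no fold change. The 3 probes target different parts of the gene. By the array's annotation, probe 3 starts at base 127869853 of chromosome 2, probe 2 covers chr2:127888010-127899105, and probe 1 covers chr2:127903168-127903227, all on the plus strand of mm7. The 60 bases of probe 2 thus span 11096 bases of genome and cross an intron. They cover only the later part of the BH3 segment, by which BIM binds its partners, and the coding bases after it. Capitals mark the codons at which the probe begins in that segment. The called change was measured 4062 bases downstream of this coding segment, in which the signal was dim and no change passed the test.
Bcl2l11 probe 2: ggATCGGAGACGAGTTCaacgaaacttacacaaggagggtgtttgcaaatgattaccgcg

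Bbc3 and Bid were not called. Bbc3 (NM_133234) had log2 signals of 13.95, 14.81 and 14.59 in Schmid and 14.77, 15.54 and 15.57 in wildtype, and of 15.73, 15.39 and 14.69 in Cog and 14.75, 15.24 and 15.20 in wildtype. The groups overlapped in both mutants. Schmid had a log2 fold change of -0.84 ± 0.32 (SE, adjusted p = 0.082 by limma), and Cog one of 0.21 ± 0.32 (adjusted p = 0.76). Bbc3 was called in Schmid only without replicate 1 of its wildtype (-1.11, adjusted p = 0.031, where the alternatives other than the test against 2-fold gave 0.024 to 0.25). Bid, which links death receptors to mitochondria, had a Schmid log2 fold change of 0.23 (adjusted p = 0.51) and a Cog one of -0.19 (adjusted p = 0.70), and was well above background on 9 of 12 arrays.

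The survival genes had 8 probes, of which 0 were called in either mutant by limma, while 2 in each mutant had an unadjusted p of 0.05 or less. Bcl2 probe 2 (NM_177410), which targets the BH1 region shown above, had log2 signals of 10.89, 11.16 and 11.14 in Schmid and 11.42, 11.70 and 12.47 in its wildtype. In Cog they were 11.74, 11.47 and 10.42, and 11.78, 12.70 and 12.30 in its wildtype. All arrays of both mutants lay below those of their own wildtype. It differed from wildtype by -0.80 ± 0.37 on the log2 scale for Schmid (SE, adjusted p = 0.14 by limma) and by -1.05 ± 0.37 for Cog (adjusted p = 0.14). It passed the threshold in Cog only with array weights (-1.16, adjusted p = 0.026, where the alternatives other than the test against 2-fold gave 0.026 to 0.35).

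The other Bcl2 probes gave values of smaller size. Probe 1 (NM_009741), 174 kilobases further along the gene, had log2 fold changes of -0.37 (limma, adjusted p = 0.49) in Schmid and -0.63 (adjusted p = 0.37) in Cog. In Cog 1 of the 3 arrays was low (11.29, against 12.74 and 12.88). Probe 3 (AK077913) had 0.08 (adjusted p = 0.89) and -0.11 (adjusted p = 0.89). The accessions differ between these probes, so they need not measure the same transcripts.

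Bcl2l1 probe 1 (NM_009743) was below wildtype by a similar size in both mutants. Its log2 signals were 10.99, 11.12 and 11.09 in Schmid and 11.27, 11.68 and 12.11 in wildtype, and 10.77, 11.11 and 11.41 in Cog and 11.27, 11.98 and 12.03 in wildtype. The Schmid arrays lay below wildtype, and the Cog arrays overlapped with theirs. Schmid had a log2 fold change of -0.62 ± 0.26 (SE, adjusted p = 0.10 by limma), and Cog one of -0.67 ± 0.26 (adjusted p = 0.17). Probe 2 had -0.25 (adjusted p = 0.24) and 0.29 (adjusted p = 0.30). Probe 3 was well above background on 6 of 12 arrays, with -0.62 (adjusted p = 0.19) and 0.08 (adjusted p = 0.91).

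Mcl1, whose protein is short-lived and blocks BAK and BIM, had 2 bright probes that differed in size. Probe 2 had log2 signals of 14.40, 14.12 and 14.15 in Schmid and 14.08, 12.61 and 12.76 in wildtype, so that replicate 1 of the wildtype group came close to Schmid. Schmid was higher by 1.07 ± 0.43 on the log2 scale (SE), a fold change of 2.10 that was not called (limma, adjusted p = 0.096). It was called with array weights (1.27, adjusted p = 0.011) and with normexp values scaled to the 75th percentile (1.29, adjusted p = 0.030). Without that wildtype array it was 1.54 and also called (adjusted p = 0.015, where the alternatives other than the test against 2-fold gave 0.011 to 0.29). Probe 1 had 0.27 (95% confidence interval -0.25 to 0.78, adjusted p = 0.42). In Cog the log2 fold changes were -0.06 for probe 1 (adjusted p = 0.90) and 0.27 for probe 2 (adjusted p = 0.76).

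Of the ER stress death genes, Casp12 (NM_009808) was below wildtype in Schmid, while the Cog arrays overlapped with theirs. Its log2 signals were 9.45, 9.19 and 9.33 in Schmid and 10.20, 10.26 and 10.16 in wildtype, and 9.73, 9.95 and 10.53 in Cog and 10.01, 10.28 and 10.12 in wildtype. The Schmid arrays lay below all others. Schmid had a log2 fold change of -0.89 ± 0.18 (SE, n = 3 per group), or -1.85-fold (adjusted p = 0.0073 by limma), which is under the 2-fold limit. Only 1 Schmid array was well above background here, so the size is uncertain, and with the scanner software's processed signal it was -2.45 or -2.43 and was called, as it was with normexp values scaled to the 75th percentile (-1.35). In Cog it was -0.07 (adjusted p = 0.87), and the difference between the mutants was -0.82 (95% confidence interval -1.40 to -0.25, adjusted p = 0.055). The probe lies in row 9, and the Schmid value was -0.59 (adjusted p = 0.033) with the row and GC trends removed.

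The 3 Tnfrsf10b probes did not move together. Probe 2 (NM_020275) had log2 signals of 10.83, 10.50 and 10.63 in Schmid and 9.89, 9.80 and 10.12 in its wildtype, and 9.15, 9.74 and 9.22 in Cog and 9.89, 9.87 and 10.17 in its wildtype. All Schmid arrays lay above their wildtype and all Cog arrays below theirs. Schmid had a log2 fold change of 0.72 ± 0.17 (SE), or 1.64-fold (adjusted p = 0.016 by limma), under the 2-fold limit. The adjusted p was above 0.05 without Schmid replicate 1 (0.061) or wildtype replicate 2 (0.062), and with 3 other choices of signal or scaling (0.13 to 0.18). On Cog arrays the probe was not well above background, so its fold is a bound, at least 1.11-fold lower than wildtype (measured log2 fold change -0.61, adjusted p = 0.080). For such a bound the dim group is set, array by array, at the signal of the dimmest probe that is well above background, unless the probe's own signal is higher. Between the mutants the difference was 1.33 (95% confidence interval 0.78 to 1.87, adjusted p = 0.0066) and was called, and it is measured against Cog signals near background. It lost its call when normexp values were scaled to the 75th percentile (1.03, adjusted p = 0.072, where the alternatives other than the test against 2-fold gave 0.0013 to 0.072).

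Tnfrsf10b probe 1 stood at a log2 fold change of -0.14 for Schmid (adjusted p = 0.41 by limma) and of 0.31 for Cog (adjusted p = 0.17), opposite in sign to probe 2 in each mutant. It lies at chr14:64420668-64420725 and probe 2 at chr14:64422215-64422274 (mm7, plus strand), 1489 bases apart. Probe 3 was well above background on 0 of the 12 arrays. The sequence of probe 2 is shown because it is the only Tnfrsf10b probe past an adjusted p of 0.05 in a mutant.
Tnfrsf10b probe 2: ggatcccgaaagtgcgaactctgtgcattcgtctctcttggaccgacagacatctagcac

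**Figure D3:**
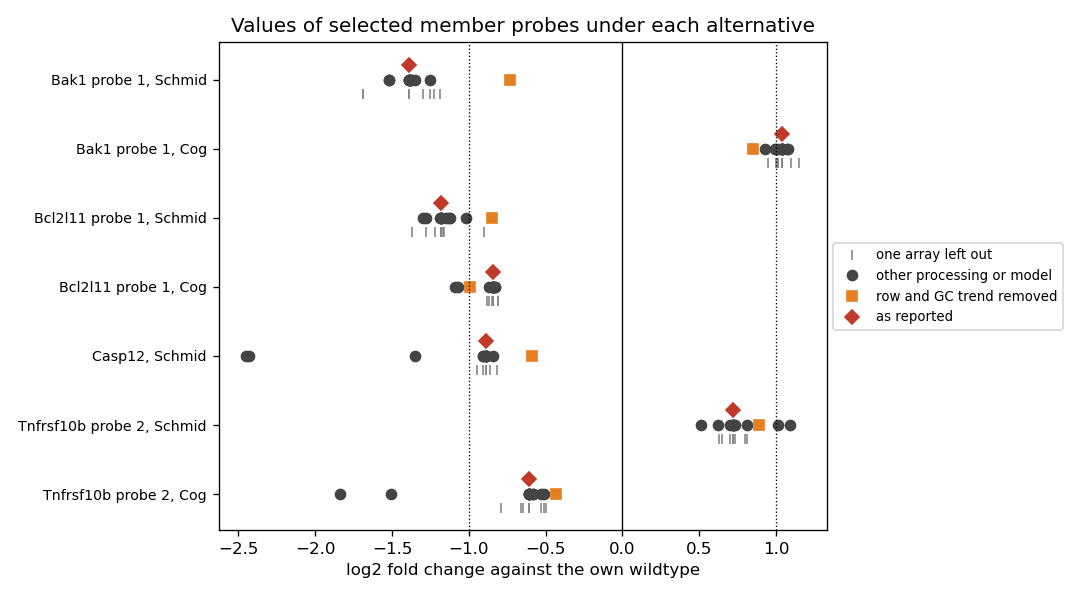
Log2 fold change (horizontal axis) of selected member probes against their own wildtype under each alternative processing or model, with 1 array left out at a time shown as ticks, the row and GC correction as squares and the reported value as a diamond. Dotted lines mark 2-fold either way. Removing the row and GC trends moves Bak1 probe 1 in Schmid from -1.39 to -0.73 and Bcl2l11 probe 1 from -1.18 to -0.85, and the processed signal moves Casp12 from -0.89 to -2.45, with no change of sign.

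Promoter sequences (250 bases before to 50 after each start, RefSeq, build GRCm38.p6) were listed for 9 of the 10 genes, with 14 starts. They were searched on both strands for the letters of known stress elements. The ER stress response element (CCAAT, 9 bases of any kind, CCACG) was in 0 of the 14, and in 0.119% of all 32851 promoters. The unfolded protein response element (TGACGTGG) was in 0 (0.676% of all), and the C/EBP-ATF composite letters (TGATGNAAN) were in 0 (3.95% of all). The FOXO letters (GTAAACA) were in 2 of the 14, one of Bcl2l11 and one of Bbc3, against 3.65% of all promoters. The Bcl2l11 promoter is shown because probe 1 of this gene was called in Schmid, as the 250 bases before the start on the plus strand (chr2:128125788-128126037), with the FOXO letters in capitals, 227 bases before the start. A match in letters is a description only.
Bcl2l11 promoter: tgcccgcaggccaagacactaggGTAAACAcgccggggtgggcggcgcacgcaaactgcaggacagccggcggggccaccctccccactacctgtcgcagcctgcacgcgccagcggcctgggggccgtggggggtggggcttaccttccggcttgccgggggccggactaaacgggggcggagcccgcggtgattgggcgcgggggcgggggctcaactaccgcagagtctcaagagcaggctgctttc

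The rest of the death pathway was described from a list of 47 other genes on the array, each at its brightest probe. In Schmid 8 were called higher and 2 lower, and in Cog 4 higher and 2 lower. Over all probes, dim ones included, 10.5% were called in Schmid and 2.31% in Cog, in either direction. These shares also stand beside the counts by arm below. The ER stress arm held 4 of the 8 higher calls in Schmid and all 4 in Cog. The median log2 fold change of the 47 genes was 0.06 for Schmid and -0.02 for Cog. The genes called in both mutants were those of the ER stress arm, and these 4 were higher in each. Ddit3 (CHOP) had a log2 signal of 16.22 in Schmid and 11.73 in wildtype, and of 15.62 in Cog and 11.96 in wildtype. This was 22.5-fold in Schmid (adjusted p = 8.7e-06 by limma) and 12.6-fold in Cog (adjusted p = 8.5e-05). Trib3, a pseudokinase and target of CHOP, rose 7.83-fold (adjusted p = 7.9e-06) and 5.60-fold (adjusted p = 6e-05) at its brightest probe. A dimmer Trib3 probe, well above background on all 12 arrays, did not follow, with log2 fold changes of 0.43 for Schmid (adjusted p = 0.16) and -0.73 for Cog (adjusted p = 0.079).

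The other genes of this arm that rose in both mutants are known to act downstream of eIF2α phosphorylation. In whole cartilage extracts, the paper reports more phosphorylated eIF2α than wildtype in Schmid, but not in Cog. Chac1, which degrades glutathione, rose 5.08-fold in Schmid (adjusted p = 0.0025 by limma), against 3.81-fold in Cog (adjusted p = 0.024). The Cog call was lost under several alternatives, such as without Cog replicate 1 (1.98 on the log2 scale, adjusted p = 0.052) or replicate 3 (1.72, adjusted p = 0.074), or without replicate 1 or 2 of its wildtype. Ppp1r15a (GADD34, listed as Myd116), which restores translation, was well above background on 0 of the 6 wildtype arrays. Its rise is thus a bound of at least 4.02-fold for Schmid (limma, adjusted p = 0.00025) and at least 2.91-fold for Cog (adjusted p = 0.0045). On replicate 2 of the Cog wildtype the dimmest probe well above background stood at 6.19. The signal of Ppp1r15a itself (9.20) was used there, so the Cog bound is less firm. Itpr1, a calcium release channel of the ER, fell in Schmid (fold change -3.34, adjusted p = 0.0046) and had a fold change of 1.04 in Cog (adjusted p = 0.95). Its change differed between the mutants at this probe (adjusted p = 0.026). At a dimmer Itpr1 probe Schmid stood at -0.97 on the log2 scale (adjusted p = 0.027) and Cog at -0.58 (adjusted p = 0.25), and the difference of -0.40 did not pass (adjusted p = 0.50). The other 7 of these 12 genes, including Ern1, Map3k5, Traf2 and Casp2, were called in neither mutant.

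**Figure D4:**
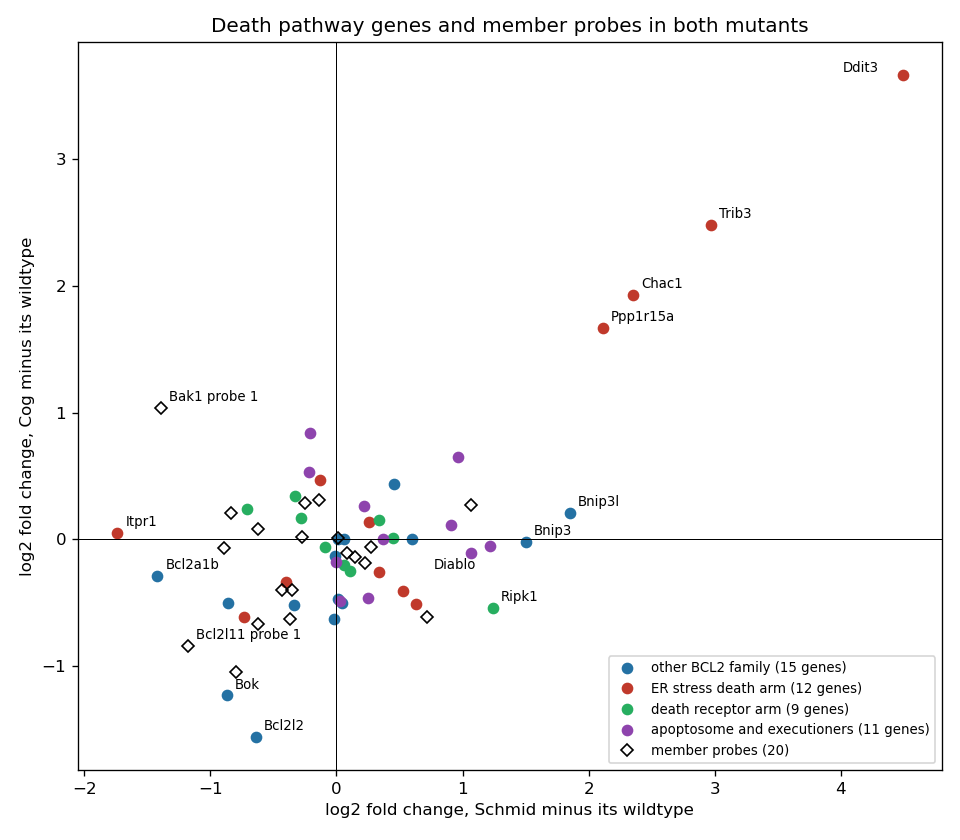
Log2 fold change in Schmid (horizontal axis) against that in Cog (vertical axis), each relative to its own wildtype, for the 47 other death pathway genes by arm and for the 20 member probes (diamonds). Named points are genes called in either mutant and the called member probes. Ddit3, Trib3, Chac1 and Ppp1r15a lie apart at the upper right, while the member probes lie around the centre.

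Of the 15 other BCL2 family genes, 2 were called higher and 1 lower in Schmid, and 0 and 2 in Cog. Bnip3l and Bnip3, mitophagy proteins induced by hypoxia, rose in Schmid. Bnip3l went from a log2 signal of 13.94 to 15.79 (fold change 3.61, limma, adjusted p = 0.0014), with 1.16 in Cog (adjusted p = 0.70) and a difference between the mutants that passed the test (adjusted p = 0.019). Bnip3 rose 2.82-fold in Schmid (adjusted p = 0.033), a call that was lost when any Schmid replicate, or wildtype replicate 2 or 3, was left out (adjusted p up to 0.12). Its difference between the mutants did not pass (adjusted p = 0.12). Bcl2a1b, a survival gene of blood cells, fell in Schmid (fold change -2.68, limma, adjusted p = 0.019). Of the blood cell markers in Schmid, all 5 erythroid and all 7 neutrophil ones were below zero (3 and 0 called). Of the macrophage markers, 2 were below and 2 above zero (1 called lower). A link between these markers and Bcl2a1b was not tested. Near-identical copies of Bcl2a1b exist in the mouse genome, so the gene behind this signal is uncertain, and the call was lost without Schmid replicate 1 or 2 or wildtype replicate 2 (adjusted p = 0.071, 0.054 and 0.076).

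Bcl2l2 (BCL-W, a survival protein) and Bok (a BAX-like effector) fell in Cog. The fold change was -2.94 for Bcl2l2 (limma, adjusted p = 0.045) and -2.34 for Bok (adjusted p = 0.045), and -1.56 (adjusted p = 0.23) and -1.82 (adjusted p = 0.058) in Schmid. At these probes, all arrays of each mutant lay below those of its wildtype. A second Bcl2l2 probe of similar brightness, well above background on all 12 arrays, had log2 fold changes of 0.41 for Schmid (adjusted p = 0.41) and -0.23 for Cog (adjusted p = 0.75), with overlap in both. Both calls in Cog were marginal. They were lost when any wildtype array of the Cog background was left out, with an adjusted p of 0.074 to 0.15 for Bcl2l2 and 0.065 to 0.13 for Bok, and under other alternatives, 12 of 26 for Bcl2l2 and 19 of 26 for Bok in all. The sensitizer genes Bad, Bik, Hrk and Pmaip1 had log2 fold changes between 0.01 and 0.06 in Schmid and between -0.50 and 0.00 in Cog, and Hrk was well above background on 0 of 12 arrays.

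Of the 9 genes of the death receptor arm, 1 was called in Schmid and 0 in Cog. Ripk1, the kinase of necroptosis signalling, rose 2.36-fold in Schmid (limma, adjusted p = 0.020) and had a fold change of -1.45 in Cog (adjusted p = 0.37), and its change differed between the mutants (adjusted p = 0.025). A dimmer Ripk1 probe, well above background on 9 of 12 arrays, had a Schmid log2 fold change of -0.34 (adjusted p = 0.13) and a difference between the mutants of -0.41 (adjusted p = 0.22). The Schmid call was lost without Schmid replicate 1 (adjusted p = 0.076) or wildtype replicate 2 (adjusted p = 0.080). Casp8, the initiator caspase of this arm, stood at 0.06 in Schmid (adjusted p = 0.89) and at -0.20 in Cog (adjusted p = 0.72) on the log2 scale. Tnfsf10, the ligand of the Tnfrsf10b receptor, was likewise well above background on 0 of 12 arrays.

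Of the 11 genes of the apoptosome and the executioners, 1 was called higher in Schmid and 0 in Cog. Diablo (SMAC, which relieves the block on caspases) rose 2.33-fold in Schmid (limma, adjusted p = 0.0077), and was under the 2-fold limit without Schmid replicate 1 (0.97 on the log2 scale, adjusted p = 0.027). Its fold change in Cog was -1.03 (adjusted p = 0.94), and the change differed between the mutants (adjusted p = 0.038). A dimmer Diablo probe stood at 0.66 in Schmid (adjusted p = 0.41), with a difference of 0.79 (adjusted p = 0.53). Apaf1 and Casp9 were not called. Apaf1, the scaffold of the apoptosome, stood at log2 fold changes of 0.37 for Schmid (adjusted p = 0.43) and 0.00 for Cog. Casp9, the initiator it activates, stood at 0.03 (adjusted p = 0.96) and at -0.49 (adjusted p = 0.44).

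The genes whose signal over the 12 arrays was most like that of the called member probes were named as a description. For Bak1 probe 1 they were Capn1 (Pearson r = 0.980), Olfr549 (0.979) and Gm166 (0.978), and for Bcl2l11 probe 1 Enpp2 (0.977), Tmsb4x (0.965) and Dbndd2 (0.955). These 12 arrays share slides and group differences, and the 3 genes were the highest of all named genes among 12817 probes well above background throughout.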

How the data were processed

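The authors deposited 12 Agilent scanner files (1 colour, Cy3; Agilent Feature Extraction 9.5.3 per the labels), from which mean and background signal intensity per spot were used, and a table of log2 values that the authors had already normalized. No step here started from reads, so depth does not apply, and the number of arrays limits the precision. Intensities were background corrected with normexp (offset 50) and put on the log2 scale, after which control spots and outlier-flagged spots (0.1946%) were left out. The remaining values were then quantile normalized and spots of a probe averaged. A model with 4 group means was fitted in limma 3.58.1 (R 4.3.3) to 41174 probes, with empirical Bayes moderation and Benjamini-Hochberg adjustment over all of them. Intervals are moderated 95% intervals. Mice were separate, so p-values measure the spread between mice together with that of dissection, amplification and array. The Schmid, Cog and Cog wildtype groups were each on 1 slide, so their spread leaves out differences between slides.

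The members and gene lists were chosen with earlier results of these data known. The named genes were all members, the pathway genes called at their brightest probe in either mutant, a few core pathway genes whatever their values, and the 3 genes most correlated with each called member. Other genes, such as single markers, were named after their values were seen. For other genes the brightest probe was used. Per the labels, groups share replicate numbers. Deviations from the group means correlated between same-numbered Schmid and wildtype arrays (r = 0.306, 0.283 and 0.117). The highest r with a wildtype array of another number was -0.147, 0.119 and 0.148, so replicate 3 did not pair. Between replicate 1 of the separate wildtype groups r was 0.505, so these values do not settle whether the numbers pair mice. With a replicate block the Schmid count stayed at 2 member probes. Probe coordinates are those of the array's annotation (mm7). Code was tested on simulated data. Alternatives covered signal, scaling, filters, slide, scan day, array weights, rows and GC content, and each array left out. One gene of the pathway list is not reported here by name.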

Additional observations from a re-analysis of the deposited data

Results flagged for a closer look

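At Bak1 probe 1 the effects of the 2 mutants differed in a direct test, with a log2 difference of -2.43 between the Schmid and the Cog effect (limma, adjusted p = 0.0043). All 3 Schmid arrays lay below and all 3 Cog arrays above their own wildtype. Bak1 probe 2 had a difference of 0.05. The wildtype groups themselves were 1.07 apart at probe 1, and the slides of the arrays cannot be told apart from genotype.

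At Tnfrsf10b probe 2 the effects also differed, by 1.33 on the log2 scale (limma, adjusted p = 0.0066), with Schmid above and Cog below wildtype on all arrays. No Cog array was well above background at this probe, and Tnfrsf10b probe 1 had a difference of -0.46 (adjusted p = 0.096), opposite in sign.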

How the results depend on the processing

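Of 2569 recomputed values for single probes, 2481 stayed on their side of the threshold, 69 lost a call, 19 gained one and 0 called values changed sign. A further 166 values that were called in neither setting changed sign. Most of the recomputed values belonged to results that were not called as reported and could not lose a call. Among called results the losses ran from 0 of 26 alternatives (Ddit3 in both mutants) to 19 of 26 (Bok in Cog). In Schmid, Bak1 probe 1 lost its call in 2 of 26 and Bcl2l11 probe 1 in 3 of 26. The count of member probes called in Schmid (2) was 4 with normexp values scaled to the 75th percentile, 4 with no limit on the fold, 0 with the row and GC trends removed and 0 when tested against 2-fold (treat), and 2 to 3 with each array left out. In Cog (0) it was 1 with the processed signal after quantile normalization (Bcl2l11 probe 1), 1 with slide as a random block, 1 in a fit of 2 groups only (both Bak1 probe 1), 1 with array weights (Bcl2 probe 2) and 1 with no limit on the fold (Bcl2l11 probe 1), and 0 to 1 with each array left out. The difference between the mutants (2) fell to 0 when tested against 2-fold and stayed at 2 with each array left out. Between the wildtypes (0) it was 2 with array weights, and 0 to 2 with each array left out (2 without replicate 1 of the Schmid background). Of the 47 pathway genes, the Schmid count (10) was 3 when tested against 2-fold and 6 to 12 with each array left out (6 without Schmid replicate 1). The Cog count (6) was 3 after scaling of the processed signal to its 75th percentile, 2 when tested against 2-fold, and 3 to 6 with each array left out (3 without replicate 1 or 2 of its wildtype). The cause of these shifts was not tested. Except with no limit on the fold, the share of all probes called under each alternative was not counted. The counts here and in the next paragraph thus have no baseline.

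Replicate numbers in Cog and its wildtype did not pair the arrays (r = -0.209, 0.153 and -0.201). With the replicate block, 1 member probe was called in Cog (Bak1 probe 1, adjusted p = 0.045), Bcl2l11 probe 1 had an adjusted p of 0.066 there, 4 rather than 6 pathway genes were called there, and the other counts of calls did not move by over 1.5 times. A block for scan day was added after the data were seen, and gave 2 member probes in Schmid and 0 in Cog. Dim signal limits Bcl2l11 probes 2 and 3, Bcl2l1 probe 3, Casp12 and Tnfrsf10b.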

Other observations

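Beside the dimmer probes of Trib3, Itpr1, Bcl2l2, Ripk1 and Diablo given above, none of which was called in either mutant, Bnip3l had a further probe called in Schmid (log2 fold change 2.12), and Cycs, the gene of cytochrome c, had 2 (1.79 and 1.40), while its brightest probe was at 0.96 (limma, adjusted p = 0.023). Htra2, a mitochondrial protease that is released with cytochrome c, stood at a log2 fold change of -0.21 for Schmid (adjusted p = 0.48) and of 0.84 for Cog (adjusted p = 0.051), and the effects differed between the mutants at an adjusted p of 0.037, with a difference of -1.05. These genes are not members and were named after their values were seen.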
